A study of Mus musculus with 24 samples.

Results

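The genes Gkn2, Cym, Lgals4, Gpa33, Vil1, Cdh17, Eps8l3, Tm4sf20 and Cltrn belong to the differentiated lining of the stomach and intestine, or are best known from absorptive epithelium such as that of gut and kidney. They were taken by symbol from 2 tables of RNA-seq read counts of mouse lung adenocarcinoma cells, and all 9 were found in both tables, among 39310 genes in the table of siRNA libraries and 38937 in that of shRNA libraries. They had been selected on the counts and fold changes of these same libraries, so their levels and fold changes are given as a description. Where the fit across all genes called a member, the call is counted beside the share of all genes called and supports nothing. All 9 passed the filter on low counts among the siRNA libraries, and 3 of the 9 did among the shRNA libraries.

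The study asked what the integrated stress response does in the evolution of lung adenocarcinoma, and treated tumour cells, sorted from lung as GFP-positive and CD45-negative, in culture. In this response, phosphorylation of a serine of the translation initiation factor eIF2α lowers general protein synthesis and raises translation of the transcription factor ATF4. The study holds 6 groups of cultured cells, with 4 libraries each. A/A cells, in which that serine is replaced by alanine on both alleles, received an siRNA against Chchd10, a mitochondrial protein of the intermembrane space (A/A siChchd10), or a control siRNA (A/A siControl). S/S cells, which keep the serine, received the same siRNAs (S/S siChchd10 and S/S siControl). Other S/S cells carried an shRNA against Atf4 (S/S shAtf4) or a scrambled shRNA (S/S shControl). The genotype field of the labels reads WT for every control group, A/A siControl included, and the alleles are taken from the sample titles. Age, strain and the number of tumours or cultures behind a group are not stated in the labels, so any p-value below measures only the spread between these libraries, which may be technical. A difference between A/A and S/S cells cannot be told apart from one between the tumours or cultures they came from.

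Absorptive cells of the intestine carry a brush border, an apical carpet of microvilli held up by bundled actin and capped by protocadherins. Their genes are controlled by a small set of endodermal factors, among them HNF4A and CDX2, while NKX2-1 keeps lung epithelium in its lung state and represses a gastric programme in it. Lung adenocarcinoma that loses NKX2-1 is known to take on gastric and intestinal gene expression.

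Total counts per library ran between 42863650 and 75409451 in the siRNA groups and between 14067290 and 70932804 in the shRNA groups. Levels are in CPM, counts scaled to a common library size after TMM within each table. The target Chchd10 was at 1.37 to 2.15 CPM in A/A siChchd10 and at 7.96 to 10.2 CPM in A/A siControl, and at 5.34 to 6.82 CPM in S/S siChchd10 and 38.1 to 46.0 CPM in S/S siControl. Atf4 was at 225 to 319 CPM in S/S shAtf4 and at 497 to 834 CPM in S/S shControl. The epithelial genes Epcam, Krt8, Krt18, Krt19 and Cdh1 summed to 3804 to 6719 CPM, while the lung factor Nkx2-1 was at 0 counts in all 8 shRNA libraries. Summed markers of leukocytes stayed between 1.92 and 4.79 CPM over all 24 libraries, with Ptprc, which encodes CD45, at most 0.239 CPM in any library. In 1 library, A/A siControl replicate 1, the summed level of 25 genes that mark the S/S cells reached 7.22% of their S/S siControl level, against 0.736 to 1.49% in the other A/A siControl libraries. The Y-linked gene Ddx3y was at 0.644 to 1.34 CPM in S/S shAtf4 and at 44.4 to 53.5 CPM in S/S shControl, a difference that cannot be told apart from that of the shRNAs. Among the siRNA libraries it was at 111 to 155 CPM in A/A cells and at 38.0 to 56.7 CPM in S/S cells.

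Promoters are shown for the 2 members whose RefSeq window held the letters of a motif searched here. The windows run from 250 bases before to 50 bases after the annotated start in GRCm38.p6, were found for 7 of the 9 members (8 windows), and were searched on both strands for AAAGTCC (HNF4), TTTATNG (CDX), TGTTTAC (FOXA) and TCAAGTG (NKX2-1). Capitals mark the matches. The Cym window, at chr3:107221683-107221982 on the minus strand, holds the CDX letters 30 bases before the start, and these overlap the letters TATAAA. The Gpa33 window, at chr1:166129971-166130270 on the plus strand, holds the HNF4 letters at bases 35 to 41 after the start.
Cym: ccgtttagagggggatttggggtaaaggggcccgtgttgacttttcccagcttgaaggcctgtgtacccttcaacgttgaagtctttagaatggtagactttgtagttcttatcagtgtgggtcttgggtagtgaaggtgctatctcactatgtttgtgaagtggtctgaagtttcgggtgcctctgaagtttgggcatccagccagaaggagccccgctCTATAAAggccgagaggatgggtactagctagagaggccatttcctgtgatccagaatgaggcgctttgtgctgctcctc
Gpa33: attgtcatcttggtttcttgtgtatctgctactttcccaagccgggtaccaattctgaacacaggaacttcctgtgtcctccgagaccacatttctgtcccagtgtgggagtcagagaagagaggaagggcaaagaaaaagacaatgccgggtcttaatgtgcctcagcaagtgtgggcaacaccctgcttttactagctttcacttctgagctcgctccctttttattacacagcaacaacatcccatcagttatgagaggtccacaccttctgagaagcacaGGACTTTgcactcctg
Among all 32851 mouse windows of this length, 4.21% held the HNF4 letters and 10.9% the CDX letters. FOXA letters, in 3.65% of all windows, and NKX2-1 letters, in 3.06%, were found in none of the 8 member windows. The windows of Gkn2, Lgals4, Vil1, Eps8l3 and Cltrn held none of the 4 motifs. The HNF1 letters GTTAAT were not part of this search. A Cltrn window holds them, and their share among all windows was not taken.

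By their levels the members are described in 2 sets, which were not sharply parted. Vil1, Cdh17, Lgals4, Gpa33 and Eps8l3 were found in all 4 siRNA groups. Gkn2, Cym, Tm4sf20 and Cltrn were found in A/A cells and were scarce in S/S cells, with at most 74 counts over the 4 libraries of a group. By that measure Eps8l3 was also scarce in S/S siControl, at 49 counts, and Gkn2 in A/A siControl, at 48 counts. A group averaging 3 counts or fewer per library was taken as at the counting floor. Per kb of transcript, Cltrn at 58.4 ± 1.81 CPM per kb and Lgals4 at 53.8 ± 3.57 CPM per kb led in A/A siChchd10 (SD, n = 4), with mean ± SD ranges that overlapped, ahead of Vil1 at 45.7 ± 3.53 CPM per kb. In S/S siChchd10 the order per kb was Lgals4 at 70.5 ± 1.72, Vil1 at 39.3 ± 1.71 and Cdh17 at 22.4 ± 1.08 CPM per kb, and Cltrn came last at 0.00750 CPM per kb. In both shRNA groups Cdh17 led, at 6.63 ± 3.56 CPM per kb in S/S shAtf4 and 6.11 ± 2.69 CPM per kb in S/S shControl.

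**Figure D1:**
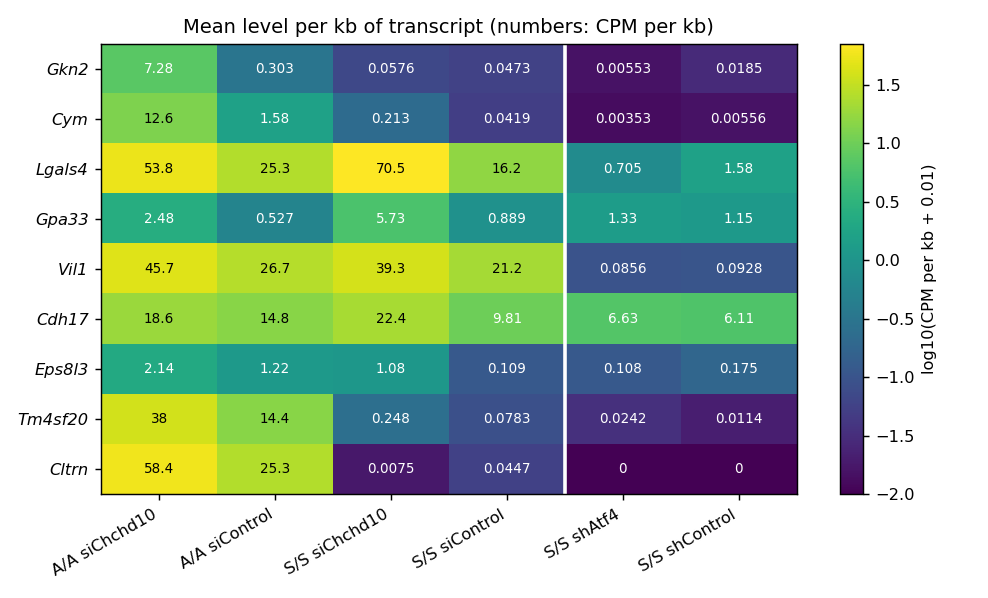
Mean level of each gene per kb of its longest coding transcript, in CPM per kb, for the 6 groups of 4 libraries; the colour is the log10 of the level plus 0.01, and the white line parts the siRNA table from the shRNA table. Cltrn and Tm4sf20 were high in the A/A groups alone, while Lgals4, Vil1 and Cdh17 were high in all 4 siRNA groups.

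With siChchd10, all 9 members were higher in A/A cells than with siControl, and 9 of 9 were past the threshold, where 26.5% of all 18138 genes tested were called higher and 25.0% were separate and higher. In S/S cells 7 of 9 were called higher, where 15.0% of all genes were. Gkn2 was not called, and Cltrn was called lower on 2 against 12 counts, where 13.0% of all genes were called lower. That Cltrn call was lost with the replicate block, with the DESeq2 Wald test and without S/S siControl replicate 1 or 2 or S/S siChchd10 replicate 2 or 3. For the interaction, where 35.6% of all genes were called, Lgals4, Cdh17 and Eps8l3 were called lower, as 18.9% of all genes were, and Gkn2 and Cltrn were called higher, as 16.7% were, with S/S groups at or under the floor. Between genotypes with siControl, 8 were called higher and 1 lower in A/A than in S/S cells, where 35.6% and 34.7% of all genes were called. As the members were chosen with these comparisons known, nothing is read from these counts or shares. The comparisons share the A/A siControl and S/S siControl libraries.

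**Figure D2:**
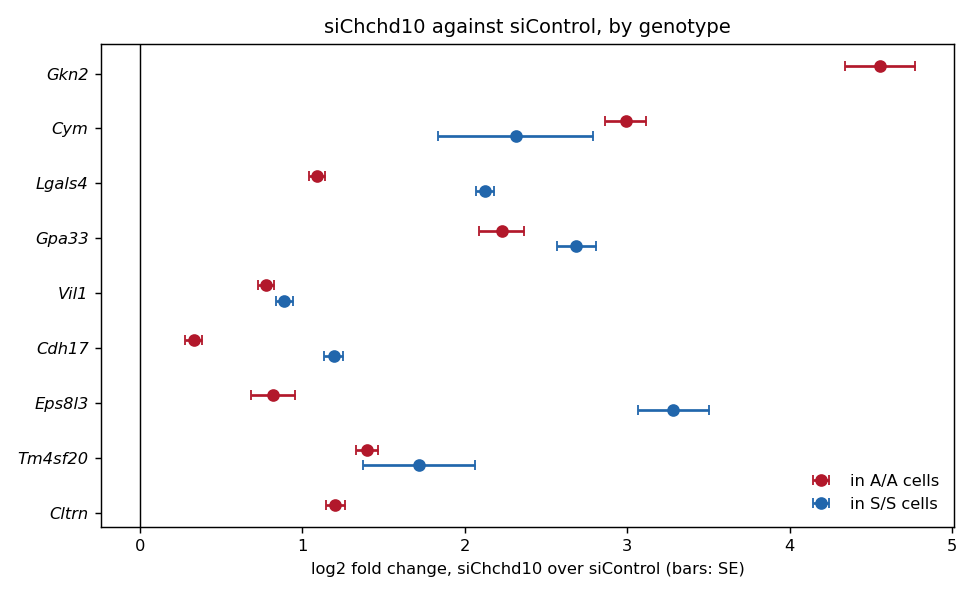
Log2 fold change of siChchd10 over siControl with its standard error, in A/A cells (red, upper) and S/S cells (blue, lower); Gkn2 and Cltrn have no S/S value because both groups were at or under the floor. The S/S effects lay far to the right of the A/A effects for Lgals4, Cdh17 and Eps8l3, and close to them for Vil1.

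Vil1 encodes villin, the actin-bundling protein of the brush border. It stood at 142, 152, 149 and 127 CPM in A/A siChchd10, against 83.2, 82.6, 86.2 and 81.5 CPM in A/A siControl. In S/S cells it stood at 125, 126, 115 and 125 CPM with siChchd10, against 68.2, 60.9, 66.4 and 69.6 CPM with siControl. Every siChchd10 library lay above every siControl library of its genotype, and in both treatments the A/A libraries lay above the S/S libraries. The log2 fold change of siChchd10 over siControl was 0.77 (SE 0.0493) in A/A cells and 0.89 (SE 0.0499) in S/S cells. The difference of these effects, A/A minus S/S, was -0.12 (SE 0.0698). Vil1 lies on chromosome 1 (GRCm38, 74409376 to 74435559, plus strand) and overlaps Usp37 on the other strand, and as the strand setting of the counting is not given in the sources used here, reads of the 2 genes may be mixed.

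Cdh17 encodes LI-cadherin, an adhesion protein of the intestinal epithelium. Its level was 65.5, 62.9, 63.9 and 65.5 CPM in A/A siChchd10 and 49.4, 51.9, 49.7 and 54.2 CPM in A/A siControl. It was 76.9, 82.5, 73.4 and 77.4 CPM in S/S siChchd10 and 36.2, 29.6, 37.8 and 32.3 CPM in S/S siControl. The groups did not overlap in either genotype, but the step was small in A/A cells, with a log2 fold change of 0.33 (SE 0.0549), against 1.19 (SE 0.0563) in S/S cells. The order of the genotypes also turned, since A/A libraries lay above S/S libraries with siControl and below them with siChchd10. The interaction was -0.86 (SE 0.0784). Over the 4 siRNA groups, Cdh17 and Vil1 had the profiles most alike among the members, with a root mean square difference of 0.20 in centred log2 CPM.

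Lgals4 encodes galectin-4, a sugar-binding protein that sorts glycoproteins to the apical membrane of enterocytes. It had 68.5, 72.2, 78.2 and 78.8 CPM in A/A siChchd10, against 36.9, 34.6, 34.9 and 33.6 CPM in A/A siControl. In S/S siChchd10 it had 101, 96.1, 98.5 and 95.4 CPM, against 24.5, 21.1, 23.2 and 20.8 CPM in S/S siControl. No group overlapped its neighbour in this order, S/S siChchd10 highest and S/S siControl lowest. The log2 fold change was 1.09 (SE 0.0511) in A/A cells and 2.13 (SE 0.0532) in S/S cells, a difference of -1.04 (SE 0.0729). Of the galectin genes that the list of relatives held, Lgals9, a widely expressed galectin, fell with siChchd10 in both genotypes, by 0.67 on the log2 scale in A/A cells and by 0.29 in S/S cells (edgeR quasi-likelihood test, Benjamini-Hochberg adjusted p = 2.35e-12 and 1.37e-05). Lgals2 rose in both, at 41.3 ± 1.64 CPM in A/A siChchd10 and 27.7 ± 6.38 CPM in A/A siControl, and at 299 ± 18.6 CPM in S/S siChchd10 and 132 ± 13.8 CPM in S/S siControl (SD, n = 4 each; edgeR adjusted p = 0.00194 and 5.01e-06).

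Gpa33 encodes the A33 antigen, an immunoglobulin-family surface protein of intestinal epithelium. It was at 5.14, 7.79, 6.13 and 5.87 CPM in A/A siChchd10, against 1.51, 1.24, 1.35 and 1.20 CPM in A/A siControl. The S/S siChchd10 libraries held 15.1, 14.1, 12.9 and 15.6 CPM, against 1.98, 2.46, 1.79 and 2.71 CPM in S/S siControl. Groups were separate at each step. Unlike the other 8 members, Gpa33 was lower in A/A siControl than in S/S siControl, with a log2 difference of -0.75 (SE 0.157), and it kept that order with siChchd10. Its log2 fold change was 2.23 (SE 0.137) in A/A cells and 2.69 (SE 0.121) in S/S cells, a difference of -0.46 (SE 0.191).

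Eps8l3 encodes a relative of EPS8, an actin-capping protein of microvilli. It was low, at 4.12, 5.12, 5.04 and 5.16 CPM in A/A siChchd10 and 2.40, 2.65, 3.37 and 2.63 CPM in A/A siControl. The S/S libraries showed the wider step, with 3.12, 2.23, 2.47 and 2.00 CPM for siChchd10 and 0.236, 0.370, 0.152 and 0.235 CPM for siControl. A/A siControl and S/S siChchd10 overlapped, and all other pairs of neighbouring groups were separate. The log2 fold change was 0.82 (SE 0.137) in A/A cells and 3.28 (SE 0.217) in S/S cells, and the difference of -2.47 (SE 0.269) was the widest among the 6 members above the floor in all 4 siRNA groups. Eps8l3, on chromosome 3 (107877229 to 107892900, plus strand), overlaps a predicted gene and a Riken gene, so its counts may hold their reads. Its founding relative Eps8 went the other way, at 95.5 ± 2.60 CPM in A/A siChchd10 and 146 ± 2.53 CPM in A/A siControl, and at 139 ± 1.86 CPM in S/S siChchd10 and 152 ± 5.39 CPM in S/S siControl (SD, n = 4 each; edgeR quasi-likelihood test, adjusted p = 4.58e-14 and 0.00883).

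**Figure D3:**
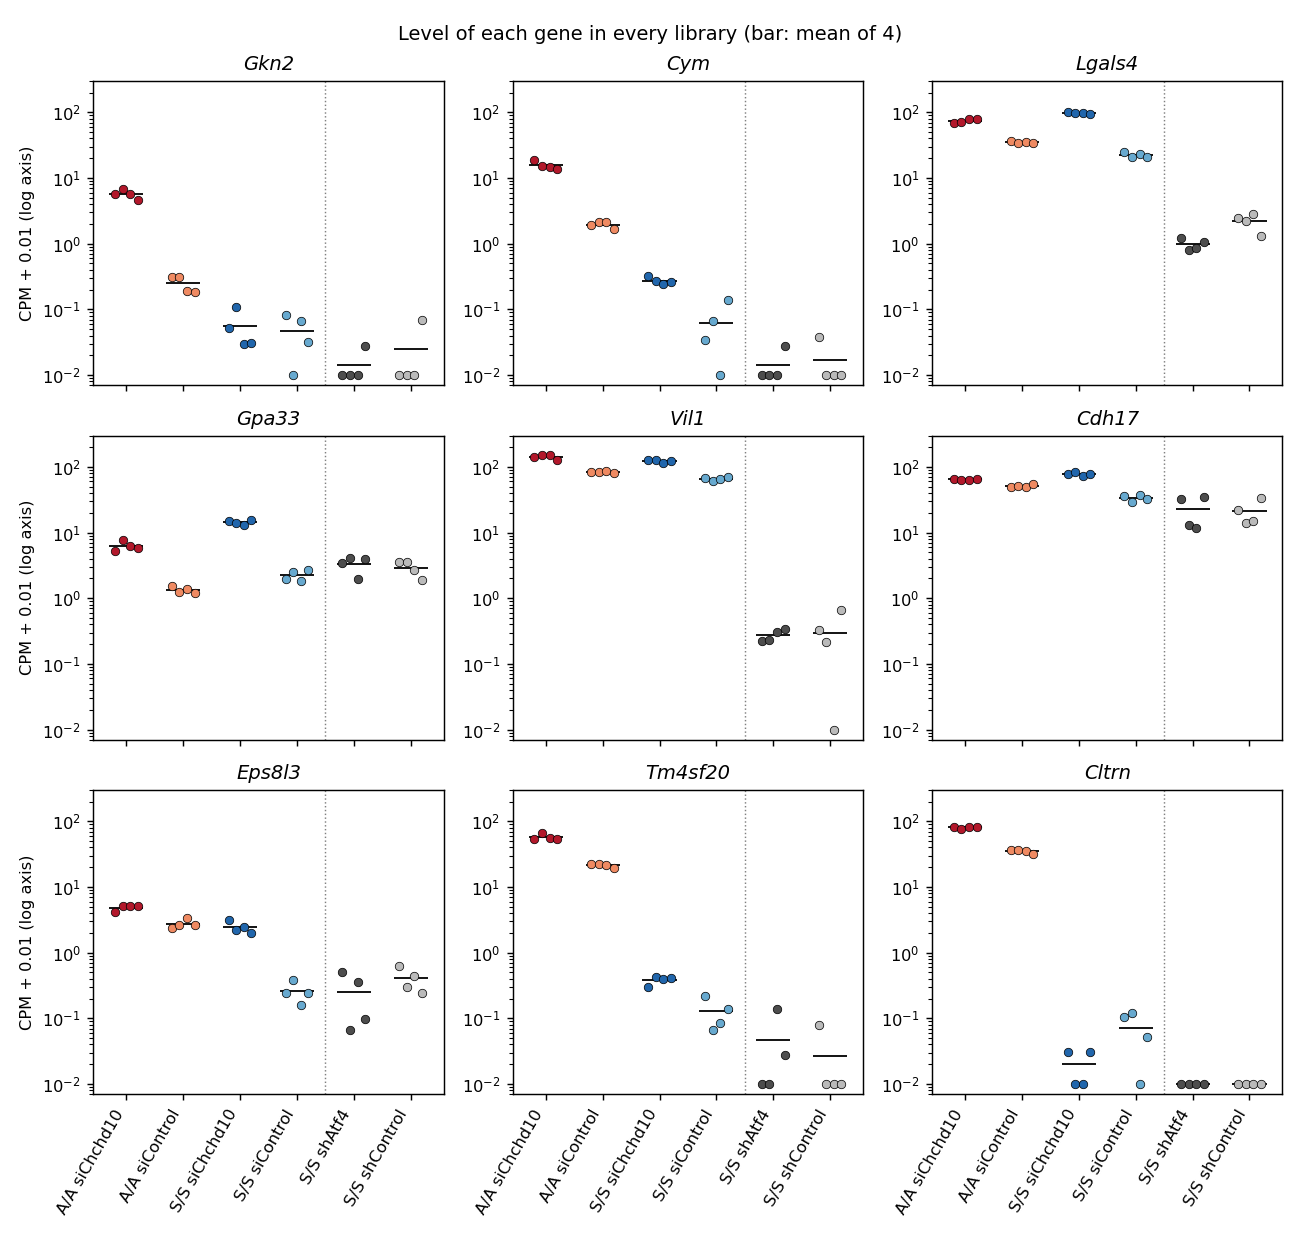
Level of each gene in every library, in CPM plus 0.01 on a log axis; points are libraries 1 to 4 from left to right, bars are group means, and the dotted line parts the siRNA groups from the shRNA groups. The A/A siChchd10 libraries lay above the A/A siControl libraries for all 9 genes, and Gkn2, Cym, Tm4sf20 and Cltrn were near the lower edge in all S/S groups.

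Tm4sf20 encodes a small membrane protein of the transmembrane 4 L6 family that is enriched in the intestine. It stood at 53.0, 65.7, 55.6 and 54.7 CPM in A/A siChchd10, against 22.8, 22.6, 21.7 and 19.7 CPM in A/A siControl. S/S libraries held 0.292, 0.419, 0.390 and 0.396 CPM with siChchd10, against 0.213, 0.0555, 0.0760 and 0.128 CPM with siControl, which are 74 and 22 counts over 4 libraries. All 4 groups were separate. The A/A siControl level was 189 times the S/S siControl level. The log2 fold changes of siChchd10 were 1.40 (SE 0.0671) in A/A cells and 1.72 (SE 0.345) in S/S cells. Their difference of -0.32 (SE 0.354) was smaller than its own error.

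Cltrn encodes collectrin, a membrane protein that carries amino acid transporters to the apical surface of kidney cells. Its libraries held 82.9, 77.6, 82.9 and 81.0 CPM in A/A siChchd10, against 36.7, 36.9, 35.0 and 32.1 CPM in A/A siControl. In S/S cells 2 counts were recorded in the 4 siChchd10 libraries and 12 counts in the 4 siControl libraries, which puts both groups at or under the floor on average, so no fold is given there. The A/A siControl level was 576 times that of S/S siControl (95% interval 329 to 1115, counting error only). In A/A cells the log2 fold change of siChchd10 was 1.20 (SE 0.0588), with no overlap. Cltrn was at 0 counts in all 8 shRNA libraries.

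Cym encodes chymosin, the milk-clotting aspartic protease of the infant stomach. It was at 18.7, 15.2, 14.7 and 13.6 CPM in A/A siChchd10, against 1.91, 2.11, 2.12 and 1.65 CPM in A/A siControl, a log2 fold change of 2.99 (SE 0.126) with no overlap. In S/S cells 52 counts in the siChchd10 libraries stood against 10 counts in the siControl libraries, a ratio of 5.16 (95% interval 2.59 to 11.4, counting error only). The A/A siControl level was 38.3 times the S/S siControl level (95% interval 20.6 to 80.4). These S/S siControl counts rest partly on replicate 4, without which the fitted log2 values were 3.18 in place of 2.31 for siChchd10 in S/S cells and 6.06 in place of 5.19 for A/A siControl over S/S siControl. Pga5, a pepsinogen and so a gastric protease of the same family, rose with siChchd10 in A/A cells, at 3.50 ± 0.477 CPM in A/A siChchd10 and 0.672 ± 0.214 CPM in A/A siControl (SD, n = 4 each; edgeR quasi-likelihood test, adjusted p = 2.23e-10).

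Gkn2 encodes gastrokine-2, a small secreted protein of the gastric surface. It had 5.70, 6.81, 5.74 and 4.69 CPM in A/A siChchd10, against 0.302, 0.296, 0.184 and 0.171 CPM in A/A siControl. This was the widest step among the members in A/A cells, with a log2 fold change of 4.56 (SE 0.217) and no overlap. S/S siChchd10 held 9 counts and S/S siControl 7 counts over 4 libraries, both groups under the floor on average, and no fold is given. Its neighbours on chromosome 6 are the other gastrokine genes, and they stayed near 0: Gkn1 had 0 counts in all 8 A/A libraries and Gkn3 averaged 0.148 CPM in A/A siChchd10 and 0.0152 CPM in A/A siControl. Tff1 had 0 counts in all 24 libraries, and Tff2, which like Tff1 is secreted with the gastrokines in the stomach, had 1 count in all.

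Markers of lung epithelium were mostly higher with siChchd10 in A/A cells, as the members were, while in S/S cells most were not called. Of 12 tested, 9 were called higher and none lower with siChchd10 in A/A cells, and 4 higher and 1 lower in S/S cells, where 26.5% and 27.2% of all genes were in A/A cells and 15.0% and 13.0% in S/S cells. Summed over 14 genes, they came to 1455 to 1712 CPM in A/A siChchd10 and 560 to 622 CPM in A/A siControl, and to 197 to 231 CPM in S/S siChchd10 and 192 to 206 CPM in S/S siControl, with none of the 14 at 0 in all libraries of any siRNA group. Most of the A/A difference was in Sftpb, at 1177 ± 82.6 CPM in A/A siChchd10 and 290.1 ± 15.7 CPM in A/A siControl, and at 8.14 ± 1.73 CPM in S/S siChchd10 and 2.59 ± 0.635 CPM in S/S siControl (SD, n = 4 each). Without it the sum was 389 to 454 CPM in A/A siChchd10 and 290.2 to 315 CPM in A/A siControl. In S/S cells the sum without it overlapped, at 191 to 221 CPM in S/S siChchd10 and 190 to 203 CPM in S/S siControl. As a mark of RNA quality, 5 noncoding RNA genes summed to 40.7 to 50.01 CPM in A/A siChchd10 and 59.8 to 63.0 CPM in A/A siControl, and to 49.3 to 58.8 CPM in S/S siChchd10 and 58.9 to 74.2 CPM in S/S siControl. Nearly all of this was Snhg1, a spliced host transcript of snoRNAs, and the other 4 summed to 2.48 to 3.41 CPM in A/A siChchd10 and 3.40 to 7.03 CPM in A/A siControl, and to 1.27 to 2.499 CPM in S/S siChchd10 and 1.88 to 3.76 CPM in S/S siControl. Their part in the result was not tested. In these bulk libraries, more cells of a type and more RNA per cell cannot be told apart.

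The genes whose profiles over the 4 siRNA groups were most like each member were taken from 11846 candidates by the root mean square difference in centred log2 CPM. Distances for Gkn2, Cltrn and Cym rest in part on S/S means at or under the floor. For Gkn2 the nearest were the surfactant genes Sftpa1 (0.21) and Sftpc (0.33). For Tm4sf20 the nearest was Sftpb (0.24), named above, followed by Ttr (0.31). Lgals4 was nearest to the fucosyltransferase gene Fut2 (0.15) and to Prr15l (0.15), and Gpa33 to the intestinal alkaline phosphatase gene Alpi (0.33) and to Glod5 (0.51). Vil1 was nearest to Gmfg (0.04) and Fam187b (0.07), and Cdh17 to Prrg4 (0.16) and Sprr2h (0.17). The nearest for Eps8l3 were Phgr1 (0.27) and Elapor1 (0.59), for Cym the liver-type genes Otc (0.37) and Hc (0.42), and for Cltrn Cd55 (1.10) was among the nearest. These are distances over 4 group means, given as a description.

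Gut genes outside the 9 were followed in 6 lists of 91 genes, of which 63 were tested in the siRNA table. In A/A cells 30 of the 63 rose and 13 fell with siChchd10, where 26.5% and 27.2% of all genes did (edgeR quasi-likelihood test, Benjamini-Hochberg adjusted p under 0.05), 68.3% called against 53.7% of all genes, with a median log2 fold change of 0.26 against -0.01 over all genes (0.27 with genes at the floor in both groups left out and Apoa4 at its bound). In S/S cells 24 rose and 2 fell, 41.3% called against 28.0% of all genes, with a median of 0.22 against 0.00. The lists were drawn up with earlier results of these data known, and these counts describe them.

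Of 15 enterocyte enzymes and transporters, 10 rose and 1 fell in A/A cells, where 26.5% of all genes rose and 27.2% fell, and 8 rose and 1 fell in S/S cells, where 15.0% rose and 13.0% fell. Alpi, the brush border alkaline phosphatase, had 4.15 ± 0.533 CPM in A/A siChchd10 and 1.45 ± 0.243 CPM in A/A siControl, and 8.46 ± 0.533 CPM in S/S siChchd10 and 1.61 ± 0.188 CPM in S/S siControl (SD, n = 4 each; edgeR quasi-likelihood test, adjusted p = 5.91e-11 and 6.59e-15). Apoa1, an apolipoprotein of intestine and liver, rose by 2.75 on the log2 scale in A/A cells and by 1.32 in S/S cells (edgeR adjusted p = 5.99e-11 and 2.55e-06). Apoa4, another, was at 0 counts in all A/A siControl libraries and at 1.14 ± 0.345 CPM in A/A siChchd10, at least 18.9-fold higher when the floor is set at 3 counts per library (edgeR adjusted p = 7.51e-11). Fabp2, the intestinal fatty acid binding protein, rose by 1.23 in A/A cells and by 1.28 in S/S cells (edgeR adjusted p = 1.68e-08 and 5.56e-07). Anpep, an aminopeptidase, fell by 1.36 on the log2 scale in S/S cells (edgeR adjusted p = 5.58e-06) and Mep1a, a meprin protease, by 0.39 in A/A cells (edgeR adjusted p = 0.00820), a call that was lost without A/A siControl replicate 1, at -0.29 (edgeR adjusted p = 0.0599). Sis, the sucrase of the mature small intestine, had 1 count in all siRNA libraries.

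Of 11 brush border structure genes, 5 rose and 2 fell in A/A cells and 5 rose and 1 fell in S/S cells, 63.6% called against 53.7% of all genes in A/A cells and 54.5% against 28.0% in S/S cells. Cdhr2, a protocadherin that links microvillus tips, had 419 ± 35.5 CPM in A/A siChchd10 and 233 ± 11.4 CPM in A/A siControl, and 27.8 ± 0.576 CPM in S/S siChchd10 and 8.66 ± 0.463 CPM in S/S siControl (SD, n = 4 each; edgeR quasi-likelihood test, adjusted p = 2.81e-14 and 1.76e-17). Anks4b, a scaffold of the same complex, rose by 0.65 in A/A cells and by 0.63 in S/S cells (edgeR adjusted p = 4.22e-10 and 1.31e-08). Villin-like Vill, the relative of Vil1, fell by 0.62 on the log2 scale in A/A cells and rose by 0.38 in S/S cells (edgeR adjusted p = 4.99e-13 and 1.57e-08), whereas Vil1 was higher in both.

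Of the 9 stomach genes tested, 5 rose and 2 fell in A/A cells, and 4 rose and none fell in S/S cells, 77.8% called against 53.7% of all genes in A/A cells and 44.4% against 28.0% in S/S cells. Muc5ac, the mucin of gastric surface cells, was low, at 0.800 ± 0.0800 CPM in A/A siChchd10 and 0.161 ± 0.0317 CPM in A/A siControl (SD, n = 4 each; edgeR adjusted p = 3.50e-06). Psca, a surface antigen of stomach and prostate, had 16.8 ± 1.06 CPM in S/S siChchd10 and 7.45 ± 0.992 CPM in S/S siControl (SD, n = 4 each; edgeR adjusted p = 4.85e-11). Atp4a was among the 2 that fell in A/A cells (log2 -0.49, edgeR adjusted p = 0.0309), a call lost when some single libraries were left out. Among 7 goblet and secretory genes, 3 rose and 3 fell in A/A cells, 85.7% called against 53.7% of all genes. In S/S cells 2 rose and 0 fell, 28.6% called, where 28.0% of all genes were called and 15.0% were called higher. Fut2 rose by 1.12 in A/A cells and by 1.80 in S/S cells (edgeR adjusted p = 2.90e-11 and 1.04e-14). Clca1 (log2 -1.25) and Galnt12 (-0.45) were among the 3 that fell in A/A cells (edgeR adjusted p = 0.000457 and 2.34e-05). Of 4 stem and progenitor genes, 2 rose and 2 fell in A/A cells, where 26.5% of all genes rose and 27.2% fell. Sox9 was among those that fell, by 0.54 on the log2 scale (edgeR adjusted p = 5.98e-09). In S/S cells none of the 4 passed the test of edgeR, with 0 at an unadjusted p under 0.05.

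**Figure D4:**
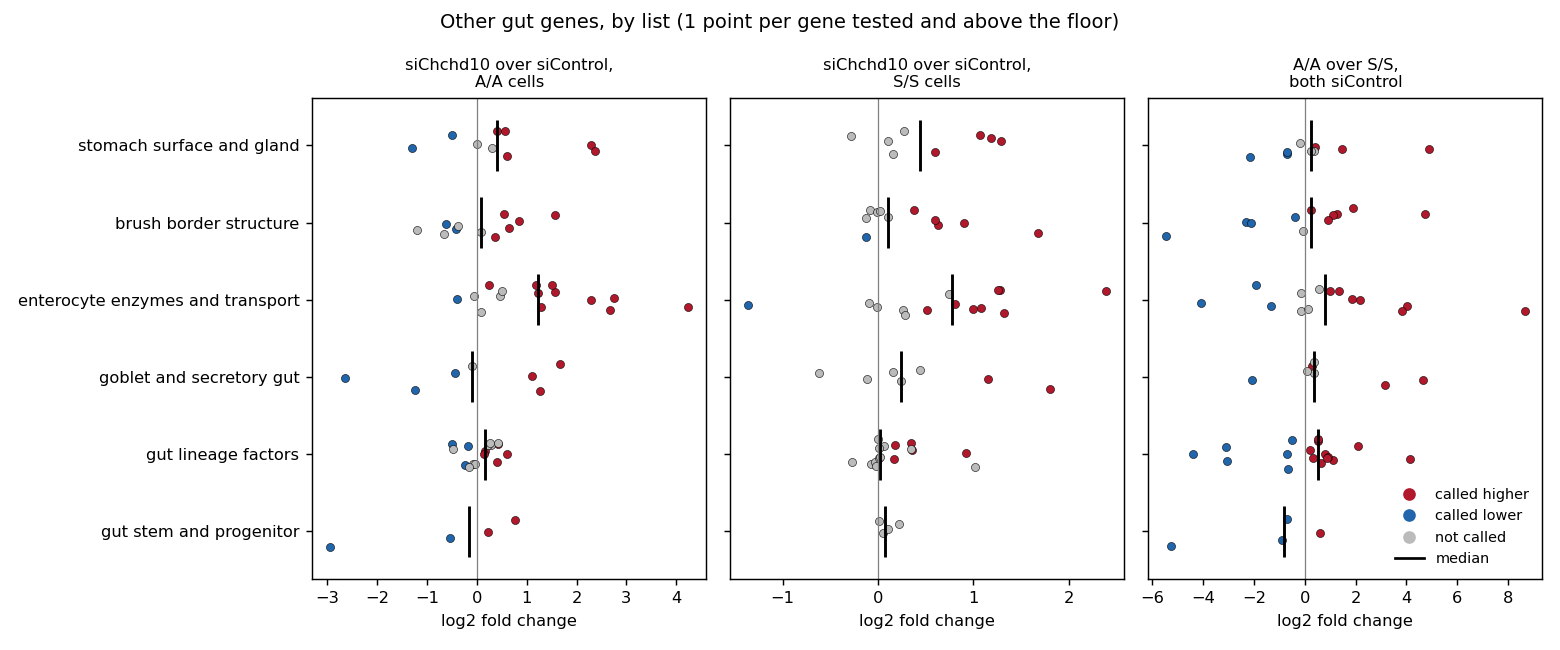
Log2 fold change of the gut list genes, 1 point per gene that was tested and not at or under the floor in both groups, with Apoa4 in A/A cells at its lower bound; red points were called higher, blue lower and grey not called, and black bars are list medians. The enterocyte list had the highest median with siChchd10, at 1.23 in A/A cells and 0.77 in S/S cells.

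Of 17 gut lineage factors, 5 rose and 3 fell in A/A cells, and 5 rose and none fell in S/S cells. The shares called, 47.1% in A/A cells and 29.4% in S/S cells, were near or below the 53.7% and 28.0% of all genes. Hnf4a, a nuclear receptor that drives enterocyte genes, was at 453 ± 21.8 CPM in A/A siChchd10 and 404 ± 9.67 CPM in A/A siControl, and at 295 ± 13.9 CPM in S/S siChchd10 and 231 ± 13.3 CPM in S/S siControl (SD, n = 4 each; edgeR quasi-likelihood test, adjusted p = 0.00266 and 8.08e-07). Foxa3 rose in both genotypes, by 0.60 in A/A cells and by 0.92 in S/S cells (edgeR adjusted p = 3.00e-08 and 9.01e-11). Klf5 (log2 -0.49) and Pdx1 (-0.17) were among the 3 that fell in A/A cells (edgeR adjusted p = 5.72e-08 and 0.00172). Cdx2, the intestinal homeobox factor, was at 0.979 ± 0.117 CPM in A/A siChchd10 and 1.34 ± 1.02 CPM in A/A siControl, and at 27.3 ± 1.30 CPM in S/S siChchd10 and 28.8 ± 3.05 CPM in S/S siControl (SD, n = 4 each). Its A/A siControl mean rests on replicate 1, at 2.85 CPM, the library with the higher level of S/S marker genes, and the other 3 were at 0.715 to 1.03 CPM. Cdx2 was thus lower in A/A siControl than in S/S siControl, by 4.40 on the log2 scale (edgeR adjusted p = 2.43e-09) and by 5.10 without that library, while 8 of the 9 members were higher. Nkx2-1, the lung factor, was present in both genotypes, at 126 to 137 CPM in A/A siChchd10, 109.7 to 118 CPM in A/A siControl, 31.2 to 37.9 CPM in S/S siChchd10 and 36.8 to 38.1 CPM in S/S siControl.

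Between genotypes with siControl, 31 of the 63 gut genes were higher and 20 lower in A/A than in S/S cells, 81.0% called against 70.2% of all genes. Cdhr2 (log2 4.75), Pdx1 (4.15), the factor of antral stomach, duodenum and pancreas, and Fabp1 (4.04) were among the higher ones (edgeR quasi-likelihood test, adjusted p = 8.47e-30, 3.02e-29 and 1.10e-12). Myo7b (-5.45), a brush border myosin, and Apob (-4.06), which builds chylomicrons, were among the lower ones (edgeR adjusted p = 8.53e-13 and 9.76e-09). Without A/A siControl replicate 1, Myo7b was at -6.28. Apob ran from 21.1 to 50.3 CPM in A/A siControl with a median of 22.8 CPM, so its mean there rests in part on its highest library. That library was again replicate 1, the one with the higher level of S/S marker genes. Gut genes stood on both sides, and among the members Gpa33 stood on the lower one.

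In the shRNA table most members were scarce. Vil1 was at 0.268 ± 0.0574 CPM in S/S shAtf4 and 0.290 ± 0.269 CPM in S/S shControl, and Eps8l3 at 0.246 ± 0.212 CPM in S/S shAtf4 and 0.397 ± 0.171 CPM in S/S shControl (SD, n = 4 each). Gkn2, Cym, Tm4sf20 and Cltrn had at most 5 counts in any library. Cdh17 was the most abundant, at 32.0, 13.1, 11.6 and 35.2 CPM in S/S shAtf4 and 21.9, 13.8, 14.7 and 34.0 CPM in S/S shControl, groups that overlapped widely. Gpa33 had 3.42, 4.05, 1.93 and 3.96 CPM in S/S shAtf4 and 3.49, 3.53, 2.71 and 1.87 CPM in S/S shControl, also overlapping. Log2 fold changes were 0.13 (SE 0.423) for Cdh17 and 0.19 (SE 0.292) for Gpa33, smaller than their errors.

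Lgals4 was the one member whose shRNA groups were separate. It had 1.21, 0.787, 0.859 and 1.05 CPM in S/S shAtf4, all below 2.42, 2.22, 2.82 and 1.28 CPM in S/S shControl, where 6.79% of all genes tested were separate and 3.57% were separate and lower. Its log2 fold change was -1.18 (SE 0.287). None of the 3 members tested was called, where 0.538% of all 14697 genes were. The same-numbered shRNA libraries deviated together, and with the replicate number as a block its log2 fold change was -1.12. At an unadjusted p under 0.05 the edgeR quasi-likelihood test gave 1 of the 3 members, the DESeq2 Wald test called 1 and the block 1, where 10.5%, 3.34% and 20.2% of all genes were, and nothing is read from these counts.

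Other gut genes in the shRNA table gave 0 calls of 28 tested, with 9 at an unadjusted p under 0.05 by the edgeR quasi-likelihood test, where 10.5% of all genes were. The DESeq2 Wald test called 3, where 3.34% of all genes were called, and the replicate block 14, where 20.2% were. Hnf4a was at 0.990 ± 0.485 CPM in S/S shAtf4 and 3.63 ± 1.15 CPM in S/S shControl (SD, n = 4 each; edgeR adjusted p = 0.0618). It was lower in S/S shAtf4 in 4 of 4 same-numbered pairs, with no overlap of the groups, and with the replicate block the log2 fold change was -1.90 (SE 0.231, edgeR adjusted p = 4.24e-05). Cdx2 was at 26.8 ± 11.0 CPM in S/S shAtf4 and 26.5 ± 5.41 CPM in S/S shControl (SD, n = 4 each; edgeR adjusted p = 0.996, and 0.883 with the replicate block). Set beside the S/S siControl libraries of the other table, which were scaled separately and are not compared by a test, the shControl cells had Cdx2 at 26.5 CPM where S/S siControl had 28.8 CPM, Hnf4a at 3.63 CPM where S/S siControl had 231 CPM, Vil1 at 0.290 CPM where S/S siControl had 66.3 CPM, and Nkx2-1 at 0 counts.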

How the data were processed

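RNA was measured in 24 libraries of cultured mouse lung tumour cells. Per the labels, total RNA was isolated with Trizol, libraries followed the Illumina TruSeq Stranded Total RNA protocol, sequencing used a NovaSeq, and the molecule field reads polyA RNA. In 2 tables the authors deposited raw counts of reads for each gene, and 0 columns are without a sample. DESeq2 1.24.0 and build mm10 are named per the submitters' processing notes. Aligner, counter, annotation and strand setting: not given in the sources used here.

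Each table was fitted as a whole in R 4.3.3 with edgeR 4.0.16 (limma 3.58.1): TMM scaling, filterByExpr, glmQLFit with robust estimation, glmQLFTest, and Benjamini-Hochberg adjustment over all genes tested, with a threshold of 0.05. The fit was tested on simulated data. Gene positions and lengths come from GENCODE M21 (GRCm38), and promoters from RefSeq (GRCm38.p6). Intervals and floors cover counting error only. The members and all lists were chosen with earlier results of these data known.

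All members were named, as were per list and comparison up to 3 genes with the largest rise and fall among those called, the 2 genes most like each member, and Hnf4a, Cdx2, Nkx2-1, Chchd10 and Atf4. Gkn1 and Gkn3 are named as neighbours, and Tff1, Tff2, Sis, Ptprc and Ddx3y were named after their values were seen. Some genes that this rule names, and their results, are not reported here, though counts over lists include them. Replicate numbers appeared to pair the shRNA libraries, where deviations of same-numbered libraries correlated at 0.447 to 0.899 and 3 of 4 pairs matched best by number. They did not appear to pair the siRNA libraries, at -0.294 to 0.454, where 4 of 24 did. Alternatives were DESeq2 1.42.0 size factors, its Wald test, no filter, a prior count of 2, fits of the 2 groups alone, a replicate block, and leaving out each library. Leaving out both shRNA libraries numbered 4 was chosen after seeing the data.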

Additional observations from a re-analysis of the deposited data

Results flagged for a closer look

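The rule that marks a library as standing apart picks about 1 group in 20 by chance when values are normally spread. This rate does not hold for counts near 0, so the number marked is not set against it. Of 52 groups of 4 libraries of a member, 8 held 1 library that stood apart from the other 3. Of these, 6 were single libraries with a few counts of a scarce gene. Gkn2 was at 0.0174 CPM in S/S shAtf4 replicate 4 and at 0.0584 CPM in S/S shControl replicate 4, Cym at 0.0174 CPM in S/S shAtf4 replicate 4 and at 0.0275 CPM in S/S shControl replicate 1, and Tm4sf20 at 0.129 CPM in S/S shAtf4 replicate 3 and at 0.0687 CPM in S/S shControl replicate 1. Eps8l3 was lowest in A/A siChchd10 replicate 1, at 4.12 CPM, and Vil1 in S/S siChchd10 replicate 3, at 114.7 CPM.

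The effect of siChchd10 differed between genotypes, by the interaction term of the edgeR quasi-likelihood fit, for the gut genes given here as the A/A minus the S/S log2 fold change. Stomach genes gave 0.69 for Anxa10, -0.77 for Atp4a, -0.61 for Psca and -0.58 for Vsig1. Brush border genes gave 0.27 for Ezr, -0.84 for Cdhr2, -0.49 for Eps8 and -0.30 for Pls1. Enterocyte genes gave 1.82 for Anpep, 1.43 for Apoa1, -0.89 for Alpi, -0.68 for Mep1a and -0.56 for Mttp. Secretory genes gave 1.51 for Spink4, -1.49 for Clca1, -0.68 for Fut2 and -0.33 for Galnt12. Lineage factors gave 0.25 for Foxa1 and -0.52 for Klf5, and progenitor genes 0.22 for Cd44 and -0.64 for Sox9. Further genes named in the text gave -0.99 for Vill, -0.61 for Lgals2, -0.38 for Lgals9, -0.32 for Foxa3, -0.18 for Hnf4a, 0.28 for Nkx2-1 and 1.42 for Apob. Of these interaction calls, those of Spink4, Atp4a, Hnf4a and Foxa3 were lost when single libraries were left out, that of Spink4 also with the replicate block, at 1.51, and with no filter on low counts (edgeR adjusted p = 0.0550 and 0.0582), and that of Hnf4a also with DESeq2 size factors, at -0.16 (edgeR adjusted p = 0.0526).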

How the results depend on the processing

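Counts of members and gut genes called in the siRNA table stayed within 1.5 times their values under every alternative run. In the shRNA table, 79 genes were called among all genes, 0 among members and 0 among gut genes. With the replicate block, which follows the apparent pairing of these libraries, the counts were 2969, 1 and 14. With DESeq2's Wald test they were 491, 1 and 3, and without both libraries numbered 4 they were 1719, 1 and 10. With no filter on low counts 1 gut gene was called. Leaving out 1 library gave 13 (without S/S shAtf4 replicate 2) to 536 genes (without S/S shControl replicate 4), and 0 to 1 members and 0 to 2 gut genes, the higher values again without S/S shControl replicate 4. The causes were not tested.

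Of the member log2 fold changes, 4 turned direction, in 8 of the alternatives run on them, none of them called. Leaving out 1 library put Cdh17 in S/S shAtf4 between -0.17 and 0.45 (below 0 without S/S shAtf4 replicate 1 or 4 or S/S shControl replicate 2 or 3, at -0.07, -0.17, -0.03 and -0.01), Gkn2 in S/S siChchd10 between -0.37 and 0.75 (-0.37 without S/S siChchd10 replicate 2, -0.11 without S/S siControl replicate 2), and the Cym interaction between -0.18 (without S/S siControl replicate 4) and 1.12. Gpa33 in S/S shAtf4 was at -0.079 without both libraries numbered 4. In the siRNA table the replicate block ended no call on a member but that of Cltrn in S/S cells. Of the calls on other named genes, 28 of 31 held under all alternatives run for siChchd10 in A/A cells (not those of Mep1a, Anxa10 and Atp4a), 21 of 22 in S/S cells (not Muc5ac), 30 of 30 between genotypes and 25 of 30 for the interaction, and 0 reversed; this recount was chosen after seeing the data. Depth limits Gkn2, Cym, Tm4sf20 and Cltrn in S/S cells, where a few counts decide their values. It also limits Eps8l3 in S/S siControl, at 49 counts over the group, and Gkn2 in A/A siControl, at 48 counts.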
